A study of Mus musculus with 6 samples.

Results

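The epicardium is the mesothelial sheet on the outer surface of the heart, and 10 genes that mark it or mesothelium in general were examined. They were chosen by symbol and are Msln, Upk3b, Upk1b and Lrrn4 (proteins of the mesothelial cell surface), Krt8, Krt18 and Krt19 (keratins of simple epithelia), and Wt1, Tbx18 and Tcf21 (transcription factors of the epicardium). Their Ensembl identifiers were matched through GENCODE release M21 to 10 of the 54532 rows of the expression table. All 10 were among the 14225 genes tested, for which the minimum was an FPKM (defined below) of 0.5 in 3 or more libraries. A gene is called tested only through its HFpEF libraries where no Chow library reached 0.5, and none of the 10 was such a gene. Krt8 and Krt18 were under 0.5 in Chow replicate 2, so they met the minimum with the help of their HFpEF libraries.

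RNA was sequenced from the hearts of 6 male C57BL/6 mice, obtained at 6 to 8 weeks of age. The 3 HFpEF mice (heart failure with preserved ejection fraction) were given a diet rich in fat (60% of kcal) together with water holding 0.5 g/L L-NAME, which blocks nitric oxide synthase, for 12 weeks, and the 3 Chow mice had standard chow and plain water. The labels name no engineered allele, and the study's methods give the tissue as left ventricular myocardium from a separate mouse for each library. Expression is in FPKM (fragments divided by exon length and by library size), so levels can be set side by side between genes. Reads recovered from the FPKM steps totalled 13076760 to 15574926 per Chow library and 13461739 to 16027101 per HFpEF library.

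The libraries were checked against markers of their tissue. The ventricular gene Myl2 had an FPKM of 2197, 2361 and 2275 in the Chow hearts and 1203, 1216 and 853.7 in the HFpEF hearts. Myl7, the atrial myosin light chain, had an FPKM of 3.81, 0.289 and 237 in the Chow libraries and 975, 2073 and 8.60 in the HFpEF libraries. Atrial transcripts were therefore abundant in Chow replicate 3 and HFpEF replicates 1 and 2, although the tissue is described as ventricle. HFpEF replicate 3 stood apart in another way, at 75.5 on the first principal component, against 11.5 and 12.7 for the other HFpEF libraries and −35.8 to −31.7 for Chow. Mitochondrial reads were 24.0% to 26.0% of reads in Chow and 22.6%, 20.1% and 7.17% in the HFpEF hearts, and their part in the results was not tested. Results are given by library for this reason, and 3 values in a row are those of replicates 1, 2 and 3.

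The epicardium arises in the embryo from the proepicardium, covers the heart, and releases cells that enter the wall and become fibroblasts and mural cells of the coronary vessels. In the adult it is a thin, mostly quiescent layer that can reactivate embryonic genes after injury. Mesothelial cells have an unusual mixed character, with epithelial keratins and surface glycoproteins beside mesenchymal transcription factors. Wt1 is needed for the epicardium to form. Tbx18 is also found in pericytes and smooth muscle, and Tcf21 in resident fibroblasts, so those genes are not particular to the surface layer.

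Promoter sequences from RefSeq (GRCm38.p6) were found for 6 of the 10 genes, namely Upk3b, Lrrn4, Krt8, Krt18, Tbx18 and Tcf21. Those of Upk3b and Lrrn4 are shown as genes for surface proteins that shared their library pattern. Those of Krt8 and Krt18 are shown because these keratins form 1 filament together and their genes are neighbours on chromosome 15, with 23697 bases and no other listed gene between them. Each sequence runs 5′ to 3′ towards the gene and stops before the first annotated start in RefSeq or GENCODE. Capitals mark matches on either strand to GGAATG, the core bound by TEAD factors, or to GGGNGTGG, a core bound by KLF factors. The windows are chr5:136038246-136038495 on the plus strand for Upk3b, chr2:132880892-132881112 on the minus strand for Lrrn4, chr15:102004483-102004592 on the minus strand for Krt8 and chr15:102027966-102028179 on the plus strand for Krt18.
Upk3b: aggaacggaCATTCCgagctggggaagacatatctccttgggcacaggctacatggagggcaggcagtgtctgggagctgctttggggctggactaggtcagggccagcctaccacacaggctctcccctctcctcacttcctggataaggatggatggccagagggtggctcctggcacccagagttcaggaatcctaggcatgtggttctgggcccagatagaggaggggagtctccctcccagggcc
Lrrn4: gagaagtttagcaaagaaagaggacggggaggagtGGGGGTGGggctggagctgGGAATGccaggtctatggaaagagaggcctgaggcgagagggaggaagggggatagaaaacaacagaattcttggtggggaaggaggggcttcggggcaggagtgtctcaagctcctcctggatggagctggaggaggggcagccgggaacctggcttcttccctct
Krt8: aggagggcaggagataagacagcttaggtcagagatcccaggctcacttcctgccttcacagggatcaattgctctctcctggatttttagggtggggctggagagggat
Krt18: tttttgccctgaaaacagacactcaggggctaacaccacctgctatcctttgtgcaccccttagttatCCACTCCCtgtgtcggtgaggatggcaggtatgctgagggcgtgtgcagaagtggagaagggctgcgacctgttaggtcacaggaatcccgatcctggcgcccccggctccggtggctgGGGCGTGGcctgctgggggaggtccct

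Within 250 bases before the RefSeq start, GGAATG occurred in 2 of the 6 promoters, Upk3b and Lrrn4, and in 12.6% of all 32851 promoters in the table. GGGNGTGG occurred in 2 of the 6, Lrrn4 and Krt18, and in 15.9% of all. These letters describe the sequence and were not tested as binding sites.

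To ask whether the surface layer's transcripts differed in HFpEF hearts, the groups were compared with limma on log2(FPKM + 0.1). A differentially expressed gene (DEG) had a Benjamini-Hochberg adjusted p under 0.05 over all genes tested and a log2 fold change of 2 or more in either direction. None of the 10 genes was a DEG (0 of 10, limma), against 0.0562% of all genes tested, and their adjusted p ran from 0.106 to 0.317. All 10 had a positive fitted log2 fold change, with a median of 1.24 against −0.01 for all genes tested. At an unadjusted p under 0.05, 6 of the 10 were higher in HFpEF, against 10.2% of all genes tested, and 0 were lower, against 13.1%. The groups did not overlap, with HFpEF higher, for 7 of the 10, against 15.6% of all genes tested. With voom on recovered reads, 0 of the 10 were DEGs and 6 were higher at an unadjusted p under 0.05, against 10.1% of all genes in that fit. Without Chow replicate 2, which was the lowest Chow library for 9 of the 10 genes and for 32.4% of all genes tested, 3 of the 10 were higher at an unadjusted p under 0.05, against 6.19% of all genes in that fit. In bulk tissue, more cells of a type and more RNA per cell cannot be told apart.

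**Figure D1:**
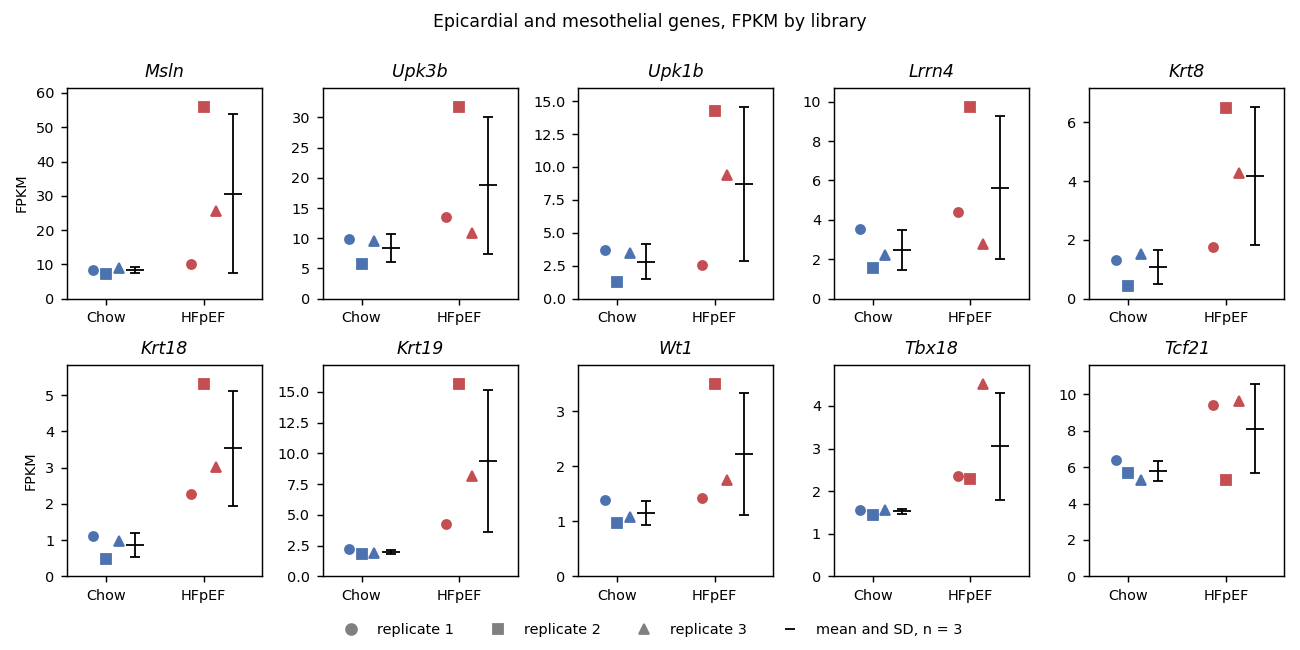
FPKM of the 10 genes in each of the 6 libraries (points, shaped by replicate number), with the mean and SD of 3 mice per group beside them. HFpEF replicate 2 is the highest library for 8 of the 10 genes and HFpEF replicate 3 for Tbx18 and Tcf21.

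Msln encodes mesothelin, a surface glycoprotein that binds the mucin Muc16, and lies on chromosome 17 from 25748613 to 25754378 (ENSMUSG00000063011, minus strand of GRCm38). Its FPKM was 8.50, 7.30 and 8.96 in the Chow hearts and 10.2, 56.0 and 25.6 in the HFpEF hearts. All HFpEF libraries were thus above all Chow libraries, but HFpEF replicate 1 only narrowly. Chow hearts averaged 8.25 ± 0.858 (SD, n = 3), and HFpEF hearts averaged 30.6 ± 23.3 (SD, n = 3). By limma, the log2 fold change of 1.56 had a standard error of 0.56 and an adjusted p of 0.177, and was 0.97 without HFpEF replicate 2. The exact two-sided permutation test gave p = 0.1, the smallest that 3 mice against 3 allow. By mean FPKM, Msln was the most abundant of the 10 genes in HFpEF, but in HFpEF replicate 1 Upk3b was higher, at 13.6.

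Upk3b and Upk1b encode uroplakins, membrane proteins best known from the bladder lining, where they pair into plaques. Upk3b (ENSMUSG00000042985, chromosome 5 from 136038496 to 136046487, plus strand) had an FPKM of 9.95, 5.75 and 9.56 in the Chow libraries and 13.6, 31.8 and 10.9 in the HFpEF hearts. The groups did not overlap, although HFpEF replicate 3 was above the top Chow heart by under 1 Chow SD (2.32). By limma, its log2 fold change of 1.02 had a standard error of 0.42 and an adjusted p of 0.212, and was 0.57 without HFpEF replicate 2. Upk1b (ENSMUSG00000049436, chromosome 16 from 38773184 to 38800328, minus strand) had an FPKM of 3.70, 1.31 and 3.44 in Chow and 2.59, 14.2 and 9.39 in the HFpEF hearts. HFpEF replicate 1 lay inside the Chow range, so the groups overlapped. Upk1b had a fitted log2 fold change of 1.42 with a standard error of 0.68 (limma adjusted p = 0.259), and 0.92 without HFpEF replicate 2. The other 4 uroplakin family genes stayed low. Upk1a had a mean FPKM of 0.596 in Chow and 0.552 in HFpEF, Upk2 had at most 0.0787, and Upk3a and Upk3bl were listed at 0 in every library.

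Lrrn4 encodes a leucine-rich repeat membrane protein that is used as a mesothelial marker (ENSMUSG00000043110, chromosome 2 from 132868305 to 132880891, minus strand). Its FPKM was 3.55, 1.56 and 2.23 in Chow and 4.37, 9.74 and 2.79 in the HFpEF hearts. HFpEF replicate 3 lay within the Chow range. By limma, the log2 fold change of 1.06 had a standard error of 0.49 and an adjusted p of 0.249, and was 0.57 without HFpEF replicate 2.

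Krt8 and Krt18 encode the type II and type I keratins that pair in simple epithelia, and Krt19 encodes a further type I keratin. In the fit of all 6 libraries on log2(FPKM + 0.1), the 3 keratins had the highest fitted log2 fold changes of the 10 genes. With a pseudocount of 1, Msln (1.48) was above Krt18 (1.24) and Krt8 (1.23). It was also above Krt8 without Chow replicate 2 and above Krt18 without HFpEF replicate 1. Krt19 (ENSMUSG00000020911, chromosome 11 from 100140810 to 100148665, minus strand) had an FPKM of 2.20, 1.84 and 1.92 in Chow and 4.24, 15.6 and 8.18 in the HFpEF hearts, from 40 to 58 reads in Chow and 109 to 491 in HFpEF. Even the lowest HFpEF library was above the highest Chow library by more than the Chow SD of 0.188. By limma, its log2 fold change of 1.99 had a standard error of 0.43 and an adjusted p of 0.107, and the ratio of means was 4.71.

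Krt18 (ENSMUSG00000023043, chromosome 15 from 102028180 to 102032027, plus strand) had an FPKM of 1.12, 0.474 and 0.978 in Chow and 2.26, 5.30 and 3.03 in the HFpEF hearts. These rested on 23, 8 and 17 reads in Chow and 45, 129 and 84 in HFpEF, and the groups did not overlap. Krt8 (ENSMUSG00000049382, chromosome 15 from 101996698 to 102004482, minus strand) had an FPKM of 1.33, 0.435 and 1.52 in Chow and 1.77, 6.48 and 4.28 in the HFpEF hearts. Both partners followed the same order of HFpEF libraries, with replicate 2 highest and replicate 1 lowest. For Krt18 the log2 fold change by limma was 1.90, with a standard error of 0.40 (adjusted p = 0.106), and it was 1.24 with a pseudocount of 1. That of Krt8 was 1.81 (standard error 0.59, adjusted p = 0.156 from limma), and its HFpEF replicate 1 was above the top Chow heart by under 1 Chow SD (0.579).

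Wt1 encodes the Wilms tumor zinc finger factor, the classic nuclear marker of epicardium (ENSMUSG00000016458, chromosome 2 from 105126529 to 105173616, plus strand). Its FPKM was 1.38, 0.963 and 1.08 in Chow and 1.42, 3.49 and 1.75 in the HFpEF hearts, with 122 reads in both Chow replicate 1 and HFpEF replicate 1. The groups did not overlap, but those nearest libraries were almost equal. By limma, the log2 fold change of 0.81 had a standard error of 0.34 and an adjusted p of 0.219. It was 0.45 without HFpEF replicate 2 and 0.54 with a pseudocount of 1.

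Tbx18 encodes a T-box factor of the proepicardium and of mural cells (ENSMUSG00000032419, chromosome 9 from 87702800 to 87731260, minus strand). It had an FPKM of 1.56, 1.45 and 1.56 in Chow and 2.36, 2.29 and 4.51 in the HFpEF hearts. Its Chow libraries were close together, and the lowest HFpEF library was far outside the Chow SD of 0.0672. By limma, the log2 fold change of 0.89 had a standard error of 0.27 and an adjusted p of 0.147, and was 0.58 without HFpEF replicate 3. Its highest library was HFpEF replicate 3, unlike that of the surface genes and keratins.

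Tcf21 encodes a basic helix-loop-helix factor of the fibroblast lineage (ENSMUSG00000045680, chromosome 10 from 22817281 to 22820174, minus strand). Its FPKM was 6.40, 5.70 and 5.32 in Chow and 9.44, 5.30 and 9.61 in the HFpEF hearts. HFpEF replicate 2, the highest library for 8 of the other genes, was here below every Chow library, but almost equal to Chow replicate 3. Its fitted log2 fold change came to 0.43 (standard error 0.24, limma adjusted p = 0.317; exact two-sided permutation p = 0.4). It was 0.71 without HFpEF replicate 2 and 0.29 without HFpEF replicate 3. An antisense gene, Gm10824, overlaps Tcf21, with an FPKM of 0.150 to 0.377. Genes on the opposite strand also overlap Krt8 (Gm36026, at most 0.143) and Tbx18 (D030062O11Rik, at most 0.121), and the strand setting of the counting is not given in the sources used here.

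**Figure D2:**
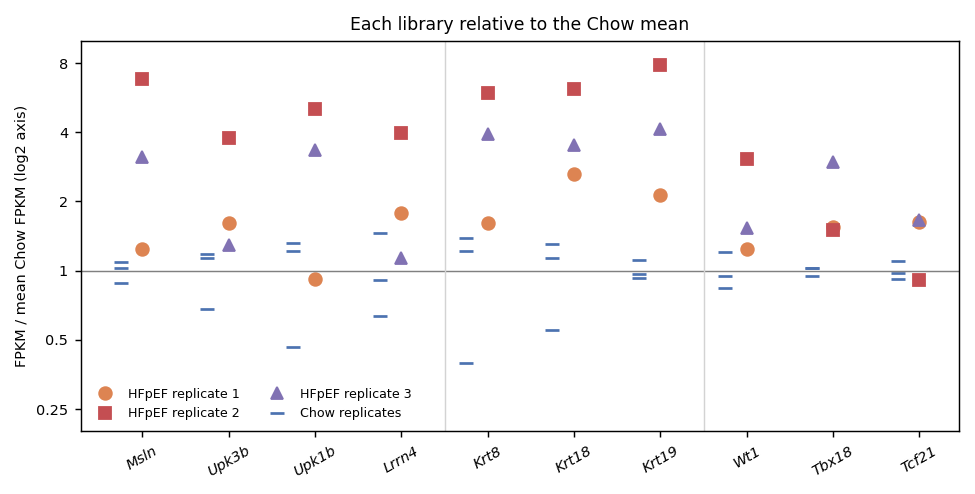
FPKM of each HFpEF library (points) and each Chow library (dashes) divided by the Chow mean of that gene, on a log2 axis; grey lines divide surface proteins, keratins and transcription factors. HFpEF replicate 2 reaches 7.88 for Krt19 and is at 0.914 for Tcf21, while HFpEF replicate 1 stays between 0.921 and 2.63.

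In order of mean level, the Chow hearts had Upk3b at an FPKM of 8.42, Msln at 8.25, Tcf21 at 5.80, Upk1b at 2.82, Lrrn4 at 2.45, Krt19 at 1.98, Tbx18 at 1.52, Wt1 at 1.14, Krt8 at 1.09 and Krt18 at 0.859. Of neighbours in this order, Msln and Tcf21, Tcf21 and Upk1b, Krt19 and Tbx18, and Tbx18 and Wt1 differed by more than the larger of their SDs, and the other neighbours did not. In HFpEF the order was Msln, Upk3b, Krt19, Upk1b, Tcf21, Lrrn4, Krt8, Krt18, Tbx18 and Wt1, from 30.6 down to 2.22, and no neighbours differed by more than the larger SD. Krt19 thus stood in the sixth place in Chow and in the third in HFpEF.

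The HFpEF mice differed widely among themselves. Summed over the 10 genes, FPKM was 39.7, 26.8 and 36.6 in the Chow libraries and 52.3, 150.2 and 80.1 in the HFpEF hearts. Relative to the Chow mean, the 10 genes had median ratios of 1.61, 4.51 and 3.03 in the HFpEF hearts. Genes over 2-fold above the Chow mean numbered 2, 8 and 6 of the 10 in the same order, against 5.03%, 5.06% and 11.3% of all genes tested. HFpEF replicate 2 was the highest of the 6 libraries for 8 of the 10 genes, although it was the highest for 11.9% of all genes tested. HFpEF replicate 3 was the highest for 30.5% of all genes tested and for 2 of the 10.

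HFpEF replicates 2 and 3 also differed in which surface markers were high. In replicate 2 all 4 surface genes were 3.77-fold to 6.78-fold above the Chow mean. In replicate 3, Msln was 3.11-fold and Upk1b 3.34-fold above it, but Upk3b was 1.29-fold and Lrrn4 1.14-fold. The 3 keratins were 3.52-fold to 4.12-fold above the Chow mean in replicate 3. As a description over the 6 libraries, log2(FPKM + 0.1) of Upk3b and Lrrn4 had a Pearson r of 0.97, as did Upk1b and Krt8, and Msln and Krt19. Tcf21 had an r of 0.015 with Msln and of 0.74 with Tbx18. These values mix the group difference with the spread within groups.

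A list of 20 other mesothelial genes was read from the same fit. Of these, 15 were tested, 8 were higher (10.2% of all genes tested were) and 1 was lower (13.1% were) at an unadjusted p under 0.05, 0 were DEGs, and the median log2 fold change was 1.10. Cdh3 and Krt7 were tested only because of their HFpEF libraries, and without them 6 of 13 were higher. Among the 15 tested genes, the largest fitted log2 fold change was that of Cdh3, which encodes P-cadherin (2.72, standard error 0.44, adjusted p = 0.0841 from limma). Its mean FPKM was 0.211 in Chow and 1.87 in HFpEF. Igfbp6, a secreted binding protein of insulin-like growth factors, had an FPKM of 26.5, 21.3 and 26.6 in Chow and 47.0, 58.9 and 51.9 in the HFpEF hearts. Its HFpEF libraries lay close together, and its log2 fold change of 1.08 had a standard error of 0.14 and an adjusted p of 0.0619 from limma.

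C3, the central complement component, had an FPKM of 84.7, 73.4 and 70.6 in Chow and 87.3, 374 and 204 in the HFpEF hearts, the same order of HFpEF libraries as Msln. Prg4, the lubricating proteoglycan of serous and joint surfaces, was highest in HFpEF replicate 1 (FPKM 8.28, 3.20 and 6.64 in the HFpEF hearts, against 1.41 to 2.11 in Chow). Bnc1, the transcription factor basonuclin 1, had 1.09, 3.16 and 0.791 against 0.238 to 0.756. The gene lower in HFpEF was Podxl, which encodes podocalyxin and is also expressed by endothelium (log2 fold change −0.57, standard error 0.18, adjusted p = 0.153 from limma). Efemp1, a matrix glycoprotein, had a log2 fold change of 0.71 (standard error 0.36, adjusted p = 0.275 from limma). Muc16, the mucin that binds mesothelin, was not tested, since fewer than 3 libraries reached an FPKM of 0.5, and had 0.272 to 0.410 in Chow and 0.474, 1.81 and 0.446 in the HFpEF hearts. Itln1 was listed at 0 in every library. HFpEF replicate 2 was the highest library for 11 of the 15 tested genes.

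**Figure D3:**
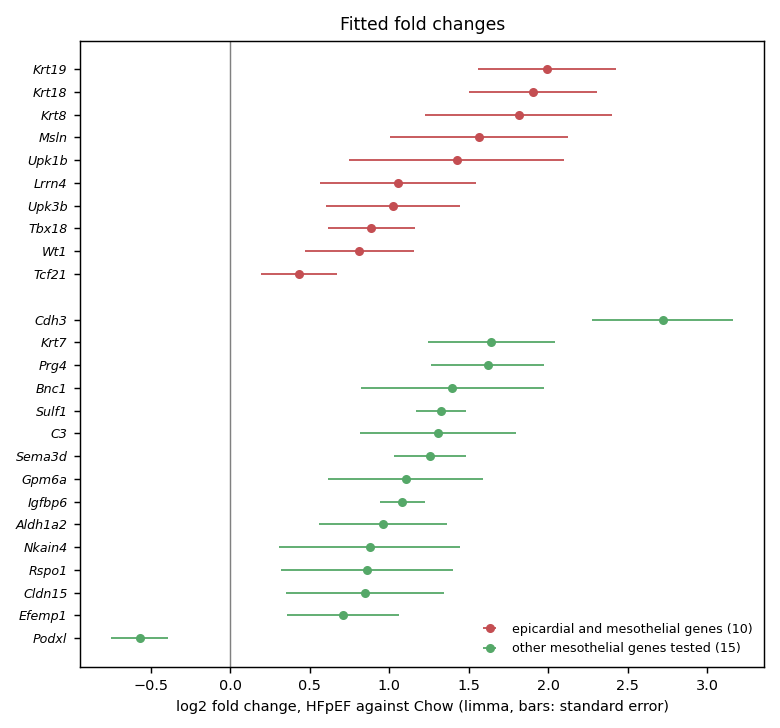
Fitted log2 fold change of HFpEF against Chow with its standard error for the 10 genes (red) and the 15 tested genes of the other mesothelial list (green). All points but that of Podxl lie above 0, and Cdh3 has the largest value, 2.72. Cdh3 and Krt7 were tested only through their HFpEF libraries.

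The mesothelium is an epithelium, so genes of other epithelia were examined beside the keratins. Of 12 markers of other epithelia, 1 was tested, Cldn3, which encodes a tight junction claudin and had a log2 fold change of 1.98 (standard error 0.82, adjusted p = 0.213 from limma). Epcam had an FPKM of at most 0.0508, and Krt5, Cldn4, Esrp1 and Ovol2 were listed at 0 in every library. Summed over the list, FPKM was 1.33, 1.13 and 0.344 in Chow and 1.41, 3.83 and 3.85 in the HFpEF hearts. Krt14 had the highest mean over the 6 libraries, but Grhl2 was above it in Chow, with a mean of 0.540 against 0.0556. Krt14, a keratin of stratified epithelia, had 0.288, 1.98 and 1.80 in the HFpEF hearts and at most 0.120 in Chow. Of 10 lung epithelium markers none was tested, 6 including Sftpc and Scgb1a1 were listed at 0 in every library, and the highest, Napsa, had at most 1.09. Among 11 keratins, 4 were tested, the 3 named above and Krt7 (log2 fold change 1.64, standard error 0.40, adjusted p = 0.118 from limma).

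Atrial tissue also carries epicardium, so the atrial list was set beside the 10 genes. Summed over 8 atrial genes, FPKM was 77.1, 79.0 and 653 in Chow and 2883, 4307 and 124 in the HFpEF hearts. Myl7 had the highest mean over all libraries, but in Chow replicates 1 and 2 and HFpEF replicate 3 the most abundant was Pam, which encodes a peptide-amidating enzyme, at 47.5, 45.2 and 51.7. HFpEF replicate 2 was highest for both lists. HFpEF replicate 1 had the second highest atrial sum and the lowest sum of the 10 genes among HFpEF libraries. Chow replicate 3 had more atrial transcript than the other Chow libraries and a sum of the 10 genes between theirs.

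Adipocyte genes were split by their level in Chow. Of 12, 10 were tested, and 5 had a positive and 5 a negative log2 fold change. The 5 with a negative value, Fabp4, Lipe, Pnpla2, Pparg and Dgat2, had mean FPKM of 3.74 to 142 in Chow. The 5 with a positive value, Adipoq, Plin1, Cidec, Cfd and Car3, had at most 0.0297 in any Chow library. Retn and Lep were not tested and were listed at 0 in Chow. In the HFpEF hearts Retn had 0.412, 1.05 and 0.393, and Lep had 0.904, 0.440 and 0.216. The DEGs were 4 (0.0562% of all genes tested), Adipoq, Car3, Cfd and Cidec, all tested only because of their HFpEF libraries. At an unadjusted p under 0.05, 5 were higher (10.2% of all genes tested) and 2 were lower (13.1%). Those 5 were all tested only through their HFpEF libraries, and without them 0 of 5 were higher. The groups did not overlap, with HFpEF higher, for 5 of the 10 (15.6% of all genes tested). They did not overlap, with HFpEF lower, for 3, namely Fabp4, Pnpla2 and Dgat2, against 2803 of all 14225 genes tested. Adipoq, the adipokine adiponectin, had an FPKM of 6.69, 6.24 and 1.91 in the HFpEF hearts and was listed at 0 in Chow, and Pnpla2, which encodes a triglyceride lipase, had 129 to 137 in Chow and 64.7 to 115 in HFpEF. Of the 10 tested, 2 were highest in HFpEF replicate 1 and 3 in HFpEF replicate 2. The part of atrial or adipose tissue in the values of the 10 genes was not tested.

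**Figure D4:**
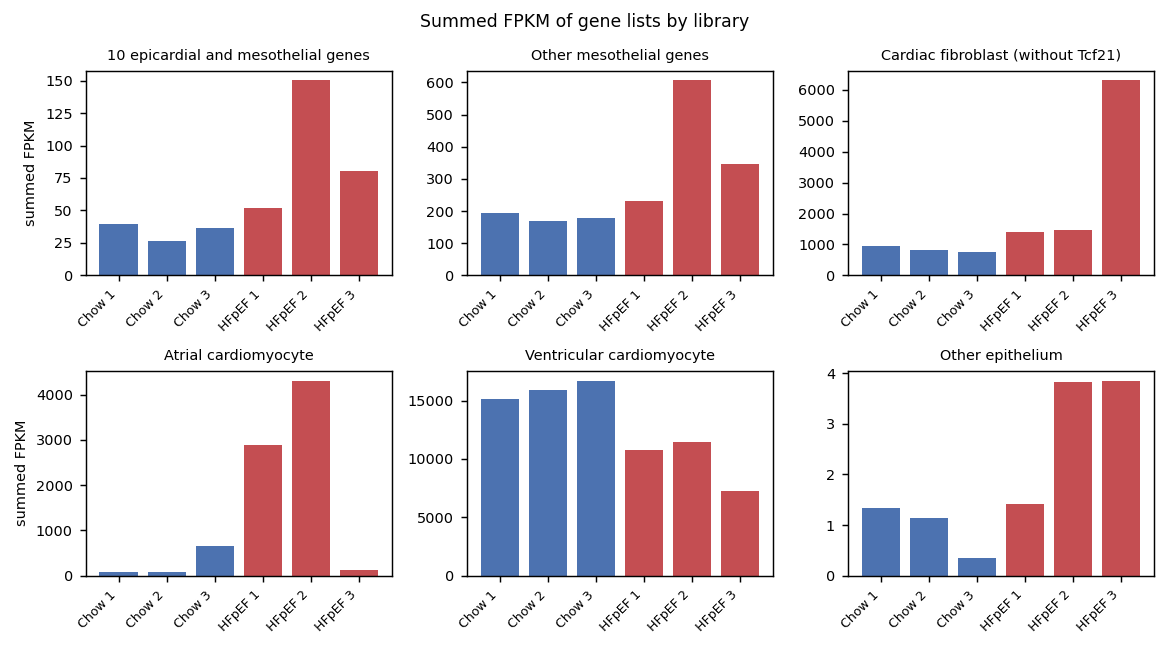
Summed FPKM per library for the 10 genes and for 5 marker lists (bars start at 0; each panel has its own scale). HFpEF replicate 2 has the highest sum of the 10 genes (150.2) and of atrial genes (4307). HFpEF replicate 3 has that of fibroblast genes without Tcf21 (6304).

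Fibroblast genes, which share Tcf21, had another library pattern. Of 13 fibroblast markers, all were tested, 9 were higher at an unadjusted p under 0.05 (10.2% of all genes tested) and 0 were DEGs (0.0562%), with a median log2 fold change of 1.29 (0.85 without HFpEF replicate 3). HFpEF replicate 3 was the highest library for 12 of the 13, against 30.5% of all genes tested. Gsn, the most abundant in Chow, had a mean FPKM of 524 there and 714 in HFpEF, and Dcn, the proteoglycan decorin, 113 and 180.5. Without Tcf21 the summed FPKM was 936, 826 and 748 in Chow and 1391, 1455 and 6304 in the HFpEF hearts. Col1a1, Col3a1 and Postn, genes of the fibrous matrix, made up much of the sum of replicate 3, where Col1a1 had an FPKM of 2252.

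Tbx18 was also read beside mural cells. In the smooth muscle and pericyte list, 10 of 11 genes were tested, 1 was higher (Tbx18 itself) and 2 were lower at an unadjusted p under 0.05, shares near those of all genes tested (10.2% and 13.1%), with a median of 0.20 (0.08 without HFpEF replicate 3 and 0.45 without HFpEF replicate 2). Those 2 were the pericyte potassium channel genes Abcc9 (log2 fold change −0.81, standard error 0.12, adjusted p = 0.0757 from limma) and Kcnj8 (−0.50, standard error 0.11, adjusted p = 0.106 from limma). Rgs5, a pericyte gene, was the most abundant in Chow, with a mean FPKM of 152 there and 125 in HFpEF. Acta2, smooth muscle actin, had 53.2, 73.1 and 77.9 in Chow and 422, 48.8 and 262 in the HFpEF hearts. Wt1 can be expressed in endothelium, and of 10 endothelial genes 0 were higher (10.2% of all genes tested) and 4 were lower (13.1%) at an unadjusted p under 0.05, with a median of −0.19 (−0.12 with quantile normalization). Cdh5, the most abundant, had a mean FPKM of 71.8 in Chow and 49.6 in HFpEF.

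Other regulators tied to the epicardium were mixed. Of 13 further transcription factors, 12 were tested, 5 were higher (4 of 11 without Gata5, tested only through its HFpEF libraries, against 10.2% of all genes tested) and 0 were lower (13.1%) at an unadjusted p under 0.05, and the median log2 fold change was 0.30 (0.14 at an FPKM minimum of 1, 0.43 with no filter and 0.44 without HFpEF replicate 2). Osr1, a zinc finger factor of the mesothelial and fibroblast lineages, had 3.23, 1.73 and 2.80 in Chow and 8.88, 9.68 and 9.02 in the HFpEF hearts. The HFpEF values lay close together, and the log2 fold change of 1.83 (standard error 0.22, adjusted p = 0.0597 from limma) did not pass the threshold. Gata5 had a log2 fold change of 1.64 (standard error 0.52, adjusted p = 0.151 from limma). The abundant cardiac factors Gata4, Gata6 and Tead1, which cardiomyocytes also express, had log2 fold changes of −0.38, 0.13 and −0.24 (adjusted p = 0.334, 0.645 and 0.363 from limma).

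Retinoic acid is a signal made by the epicardium through Aldh1a2. Of 15 genes of its pathway, 11 were tested, 4 were higher (10.2% of all genes tested) and 1 was lower (13.1%) at an unadjusted p under 0.05, with a median of 0.35. Of the 4, 1 was tested only through its HFpEF libraries, and without it 3 of 10 were higher. Aldh1a2 had an FPKM of 5.80, 3.58 and 4.78 in Chow and 4.98, 15.0 and 10.1 in the HFpEF hearts, with HFpEF replicate 1 inside the Chow range. By limma, its log2 fold change of 0.96 had a standard error of 0.40 and an adjusted p of 0.215. Rxra, a retinoid receptor, was the gene that was lower (−0.32, standard error 0.11, adjusted p = 0.176 from limma).

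Epicardial cells enter the heart wall by an epithelial to mesenchymal transition. Of 13 genes of that program, 11 were tested, 5 were higher (10.2% of all genes tested) and 1 was lower (13.1%) at an unadjusted p under 0.05, with a median of 0.44 (0.19 without HFpEF replicate 3 and 0.80 without HFpEF replicate 2). HFpEF replicate 3 was the highest library for 9 of the 11, against 30.5% of all genes tested. Vim, the intermediate filament vimentin, had a mean FPKM of 58.1 in Chow and 185 in HFpEF, and Fn1, fibronectin, 6.16 and 64.0, of which replicate 3 had 161. Twist1 had a log2 fold change of 1.53 (standard error 0.49, adjusted p = 0.155 from limma). Cdh2, N-cadherin of the intercalated disc, was the gene that was lower (−0.53, standard error 0.16, adjusted p = 0.140 from limma).

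Ventricular cardiomyocyte genes were lower in HFpEF for 4 of 10 at an unadjusted p under 0.05 (13.1% of all genes tested), with 0 DEGs and a median of −0.61. The median was −0.11 with quantile normalization and −0.34 without HFpEF replicate 3. Their summed FPKM in HFpEF replicate 3 was 7287 against 15177 to 16711 in Chow. Macrophage genes, summed at 226 to 286 in Chow, reached 916 in HFpEF replicate 3, with Lyz2 as the most abundant gene and 4 of 9 higher at an unadjusted p under 0.05 (10.2% of all genes tested). Of 10 liver markers, 5 were tested and 2, Cyp2e1 (tested only through its HFpEF libraries) and Hp, were DEGs (0.0562% of all genes tested), while Alb and Fgb were listed at 0 in every library. The part of these cell types in the values of the 10 genes was not tested.

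The genes whose log2(FPKM + 0.1) most resembled Msln over the 6 libraries were C3 (Pearson r 0.992), Syk (0.989), C2 (0.989), C7 (0.983) and Il18r1 (0.982). C3, C2 and C7 encode complement components. C7 had an FPKM of 9.81, 9.59 and 9.33 in Chow and 11.4, 26.1 and 15.0 in the HFpEF hearts, and C2 had 0.671, 0.374 and 0.555 against 0.634, 3.60 and 1.63. Those most like Tcf21 were Mecom (0.996), Acer3 (0.995), Fam181b (0.988), Ccne2 (0.985) and Pkn3 (0.983), which had low FPKM, between 0.608 and 4.78. With 6 libraries these values are a description, and many genes reach a high r.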

How the data were processed

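Hearts of 3 Chow and 3 HFpEF mice were sequenced, and groups and replicate numbers were taken from the sample labels. Clean reads had been aligned with HISAT2 and counted with featureCounts by the authors, who deposited FPKM per gene; the submitters' processing notes name GRCm38 (mm10), and the length and formula behind the FPKM are not given in the sources used here. FPKM multiplied by GENCODE M21 exon length gave whole multiples of 1 step per library for 96.1% to 96.2% of values above 0 (relative tolerance 1e-06), from which reads were recovered. For Msln these were not whole, so no read number is printed for it. Read numbers bear on counting error only.

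FPKM was divided by median-of-ratios factors (1.00 to 1.01), and log2(FPKM + 0.1) was fitted with limma (eBayes with trend and robust options) for the 14225 genes that reached an FPKM of 0.5 in 3 or more libraries. The study tested counts; FPKM are not counts, so a log-scale test was used in its place. Fold changes are on this scale and understate those of low genes. An exact permutation test (two-sided) was added for single genes. The alternatives used a pseudocount of 0.01 or 1, a minimum FPKM of 1 or none, unscaled FPKM, quantile normalization, eBayes without trend or robust options, a DEG limit of 1 on the log2 scale, the replicate number as a block, and each library left out in turn; voom on recovered reads was chosen after the data were seen. The 10 genes and 16 gene lists were chosen with earlier results of these data known. Named are the 10 genes, the 4 most abundant genes of a list and up to 4 with the largest change among those without overlap, and the 5 genes most like Msln and Tcf21; other genes named were chosen after their values were seen, as were the promoter motifs.

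On simulated data with 200 of 13692 genes changed by a log2 fold change of 3, the fit called 197 of them and 5 unchanged genes. The simulation gave every gene a dispersion of 0.05 and the same change in each HFpEF library. The 10 genes had fitted log2 fold changes of 0.43 to 1.99, and their HFpEF libraries differed widely. The simulation therefore does not show how often changes like theirs would be called. The software was R 4.3.3, limma 3.58.1, Python 3.11.15, numpy 2.4.6, pandas 2.3.3 and matplotlib 3.10.9.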

Additional observations from a re-analysis of the deposited data

How the results depend on the processing

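Each of the 10 genes kept a positive log2 fold change and an adjusted p above 0.05 in all 15 alternatives, and 0 of the 10 were DEGs in any of them or with the DEG limit lowered to a log2 fold change of 1. The lowest adjusted p was 0.0612, for Tbx18 without HFpEF replicate 3. The median log2 fold change of the 10 ran from 0.90 without Chow replicate 2 to 1.65 without HFpEF replicate 1. The number higher at an unadjusted p under 0.05 was 3 to 7 when 1 library was left out (3 without Chow replicate 2) and 5 or 6 otherwise, against 6.19% to 11% and 7.05% to 10.3% of all genes in those fits. Krt18, Krt19 and Tbx18 had an unadjusted p under 0.05 in every fit. Upk3b did not with a pseudocount of 1, without trend or robust options, with the replicate block, or without Chow replicate 1, 2 or 3 or HFpEF replicate 1 or 2. Msln did not without Chow replicate 1, 2 or 3 or HFpEF replicate 3, nor Krt8 without Chow replicate 2 or HFpEF replicate 2 or 3.

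Over all genes tested, 8 DEGs were higher and 0 lower. DEGs that were higher numbered 2 with a pseudocount of 1, 3 with 0.01, 5 at an FPKM minimum of 1, 15 without trend or robust options, 13 with the DEG limit lowered to a log2 fold change of 1, 0 with voom, and 2 to 47 with 1 library left out. DEGs that were lower numbered 1 with quantile normalization, with no filter and with the DEG limit lowered to a log2 fold change of 1, 4 without trend or robust options, and 0 to 12 with 1 library left out. The causes were not tested. With the replicate block, 2 DEGs were higher and 5 of the 10 genes had an unadjusted p under 0.05. Deviations of same-numbered libraries from their group means had Pearson r of −0.0406, −0.0730 and −0.0573 over genes. Those of different-numbered libraries had r of −0.0023 to 0.072. Same-numbered libraries were thus no more alike on this measure, and whether they shared a batch was not tested. The keratins rest on 8 to 58 reads per Chow library.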

Other observations

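Slpi and Dmkn, secreted products of mesothelial and other epithelial cells, were not tested, since fewer than 3 libraries reached an FPKM of 0.5. Slpi had an FPKM of 0.0595 to 0.289 in Chow and 0.245, 1.10 and 2.68 in HFpEF replicates 1, 2 and 3, and Dmkn had 0.0320 to 0.264 in Chow and 0.329, 2.50 and 1.54 in HFpEF. Both were over 5-fold above the Chow mean in HFpEF replicates 2 and 3. That mean rests on few reads, 1, 4 and 4 for Slpi and 1, 2 and 7 for Dmkn in the Chow libraries. Nkain4, Rspo1 and Cldn15, further mesothelial markers, were 4.73-fold, 4.42-fold and 3.76-fold above the Chow mean in HFpEF replicate 2 and 1.10-fold, 1.06-fold and 1.17-fold in replicate 3. They were thus nearer to Upk3b and Lrrn4 than to Msln in replicate 3. These values rest on single libraries and were chosen after they were seen. Of the 15 tested genes of the list of other mesothelial genes, 8 were over 2-fold above the Chow mean in replicate 3. The share of all genes tested was 11.3%. These 8 include Cdh3 and Krt7, which were tested only through their HFpEF libraries.

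Sulf1, a matrix sulfatase, and Sema3d, a semaphorin of the embryonic epicardium, had similar values in the HFpEF libraries, with ratios to the Chow mean of 2.15, 2.75 and 2.76 for Sulf1 and 2.32, 3.34 and 2.20 for Sema3d in HFpEF replicates 1, 2 and 3. Their log2 fold changes were 1.33 (standard error 0.16, adjusted p = 0.0557 from limma) and 1.26 (standard error 0.23, adjusted p = 0.0963 from limma), so neither passed the threshold. Both were higher in 3 of 3 HFpEF libraries than in any Chow library, as were 15.6% of all genes tested. In the list of other mesothelial genes, 8 of the 15 tested were higher without overlap, Cdh3 and Krt7 among them, and 1 was lower. Sulf1 and Sema3d were chosen after their values were seen.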
